A study of Mus musculus with 12 samples.

Results

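Mouse ependymomas that carried the ZFTA-RELA fusion together with an overexpressed human ETV5 gene were compared with wild-type, non-tumour cortex across all genes measured by RNA sequencing of polyA RNA. The comparison takes in every library with either label, which is 6 of the 12 libraries of the series, 3 tumours and 3 cortex samples. The series has 4 groups of 3. Tumours with the fusion alone, called control tumours below, are set beside the ETV5 tumours where they help to read a value, and tumours with the fusion and human NPY were not analysed here. Each ETV5 tumour carries both the fusion and the added ETV5, and the cortex carries neither, so what the fusion does and what ETV5 does cannot be told apart in a difference from cortex. The added gene is human and the deposited table lists mouse genes, so the transgene has no row of its own, and the sources used here do not give whether its reads were counted at mouse Etv5. The labels name neither the vector nor its promoter, and whether the replicates of a group came from different animals is not stated. The p-values therefore measure the spread between these samples, which may be technical.

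Supratentorial ependymomas with this fusion join the ZFTA gene (formerly C11orf95) to RELA, which encodes the p65 subunit of NF-kB, and the chimaeric protein enters the nucleus and switches on transcription without the usual upstream signal. Such tumours are thought to arise from radial glia, the stem cells that line the embryonic ventricles. ETV5 belongs, with ETV1 and ETV4, to the PEA3 branch of the ETS transcription factors, which act downstream of fibroblast growth factor and ERK signalling in the developing forebrain. Adult cortex, by contrast, is made up of neurons, myelinating oligodendrocytes, astrocytes, microglia and vessels, and has few dividing cells.

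Levels are given as CPM, the reads recovered from the deposited values scaled to the same total in every library, and where 3 values are given they are replicates 1, 2 and 3 of a group. Fold changes come from limma on log2(deposited value + 1), a scale that understates the change of weakly expressed genes, each with its standard error (SE) and a p-value adjusted over all genes tested by the Benjamini-Hochberg method. A gene is said to rise or fall where its adjusted p was under 0.05. The cortex libraries held 5962376 to 7444467 reads and the ETV5 tumour libraries 6691146 to 11291057. Cortex replicates correlated with each other at r = 0.98 to 0.983 across genes, which are not independent points, and the ETV5 tumours at 0.892 to 0.938, so the tumours differed more among themselves. ETV5 replicate 3 has a library code of another prefix than the other 8 libraries of the table, and what that prefix stands for is not stated.

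Of 14493 genes tested, 9248 passed, which is 63.8%. Of these, 4613 were higher in ETV5 tumours (31.8% of the genes tested) and 4635 were lower (32.0%), and with libraries scaled by their totals 5385 were higher and 4062 lower. A difference of at least 2-fold was called for 6912 genes (47.7%), 3318 of them higher (22.9%) and 3594 lower (24.8%), and one of at least 10-fold for 982 genes that rose and 1211 that fell. All 3 tumours lay above all 3 cortex libraries, in CPM, for 6061 genes (41.8%) and below them for 4574 (31.6%), whether or not they were called. The median log2 fold change over all genes tested was 0.012, with a median SE of 0.257, and scaling by library totals moved that median to 0.196. Against such a background a gene list with a few called members says little. The lists below are therefore described by how many of their members moved each way and by their median. A count near the shares of all genes tested, 31.8% higher and 32.0% lower, is not a result about its list. In bulk tissue, fewer cells of a type and less RNA per cell cannot be told apart, and this holds for each cell type list below. The largest rises were those of genes with almost no reads in cortex, among them Tnnt3, Nr5a1 and Zbp1. The largest fall was that of Ttr. The most abundant genes of the ETV5 tumours were Igf2, the translation factor gene Eef1a1, Clu and Sparc. In cortex they included the myelin gene Mbp, the astrocyte gene Slc1a2, the axonal kinesin gene Kif5a and Camk2a, so the cortex libraries carry the markers of their labelled tissue. These markers do not show that the libraries held cortex alone. The same libraries also held Ttr, a choroid plexus transcript, at high levels that are given below. Cortex replicate 3 had the least Ttr and the most Syndig1l of the cortex libraries. Whether they held other tissue, and its part in the falls of such genes, was not tested.

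**Figure D1:**
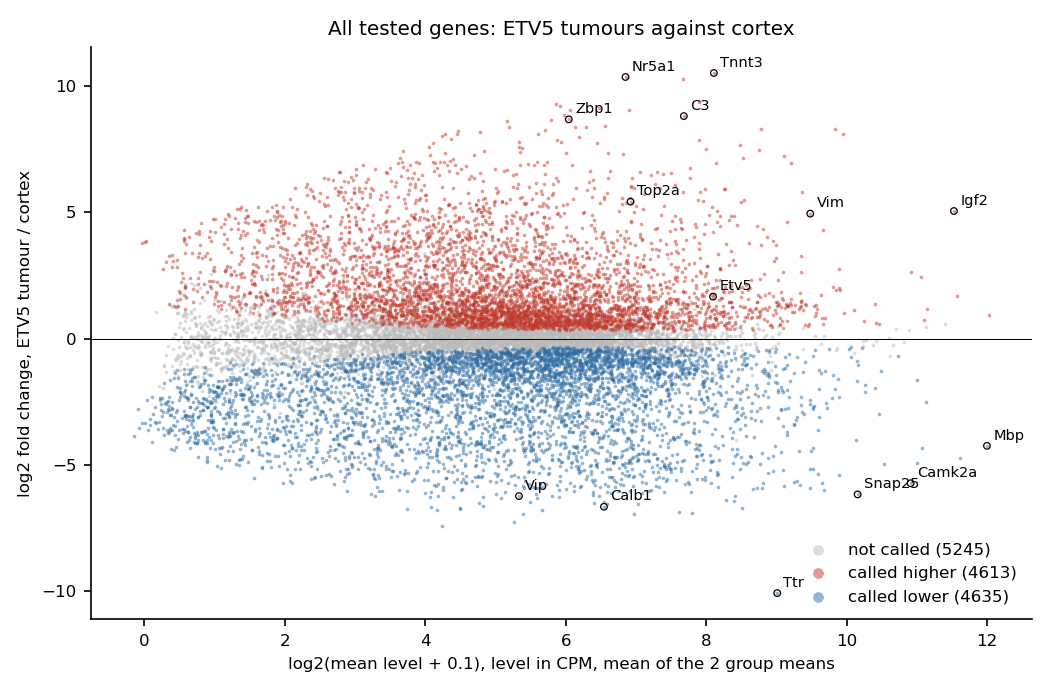
Fitted log2 fold change (ETV5 tumour minus cortex, vertical axis) against the mean level of each of the 14493 genes tested (horizontal axis, log2 scale), with the 4613 called higher and 4635 called lower in colour and the 5245 not called in grey. The labelled genes run from Tnnt3 at 10.51 to Ttr at -10.07.

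The ETS factors came first. Mouse Etv5 (chr16:22381309-22439719 on the minus strand, mm10) read 106, 144 and 109 CPM in cortex and 407, 474 and 401 CPM in ETV5 tumours. Every tumour stood above every cortex library, a 3.17-fold rise at the mouse locus (log2 fold change 1.66 ± 0.17 (SE), adjusted p = 2.93e-04), where reads of the human transgene cannot be told apart from those of the endogenous gene. Etv4, its close relative, rose from 12.1, 15.3 and 16.6 to 44.4, 69 and 57.8 CPM, again without overlap (log2 fold change 1.76 ± 0.23 (SE), adjusted p = 7.37e-04). Etv1, the other member of the branch, read 84.5, 74.1 and 56.7 CPM in cortex and 23.9, 84.9 and 40.1 in ETV5 tumours, where replicate 2 lay above every cortex library and the other tumours below, and it did not pass (log2 fold change -0.89 ± 0.45 (SE), adjusted p = 0.128). It was called lower without ETV5 replicate 2 (log2 fold change -1.37). Control tumours read 264, 322 and 299.5 CPM for Etv5, between the cortex and the ETV5 tumours, and 45.1, 26.6 and 31.3 for Etv4, where 1 of them reached the lowest ETV5 tumour. Of 15 other ETS factors tested, 10 rose and 1 fell, with a median log2 fold change of 1.28. Elf4 had the largest rise of them, from 0.672, 2.18 and 1.67 to 118, 74.4 and 103 CPM, Ets1 rose 4.29-fold, and Spi1, the master regulator of myeloid cells, rose 7.54-fold. Elk1, which couples ERK to serum response genes, was the member that fell (log2 fold change -1.41 ± 0.12 (SE), adjusted p = 1.79e-04).

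Genes that ERK signalling switches on, including its own feedback inhibitors, moved both ways, near the shares of all genes tested (31.8% rose and 32.0% fell). Of the 16 on this list that were tested, 6 rose and 6 fell, with a median of 0.51, which was 0.25 without ETV5 replicate 2. Only 2 fell without cortex replicate 2, and 3 without cortex replicate 3, without ETV5 replicate 1 or with libraries scaled by their totals. Spry4, a Sprouty inhibitor of receptor tyrosine kinase signalling, read 14.1, 16.4 and 15 CPM in cortex and 89.0, 219 and 95.7 in ETV5 tumours. All tumours were far above cortex and replicate 2 was the highest (log2 fold change 2.83 ± 0.35 (SE), adjusted p = 6.39e-04). The cyclin D1 gene Ccnd1, which drives the G1 phase and is also a reported target of the fusion, rose 16.2-fold, from 41.0, 49.8 and 47.9 to 708, 1267 and 680.3 CPM. Myc rose 3.98-fold and the stress-response gene Ier3 9.67-fold. Spred3, another inhibitor of the Ras and ERK route, went the other way, from 35.1, 32.5 and 34.1 to 8.53, 13.4 and 7.62 CPM (log2 fold change -1.99 ± 0.24 (SE), adjusted p = 5.28e-04). Egr1, an immediate early gene that ERK and neuronal activity both induce, fell from 255, 478 and 345 to 113, 196 and 162 CPM. The 10 members with a RefSeq promoter window held no match, on either strand, to the ETS core CCGGAAG in the 250 bases before their start, a stretch that held it in 6.91% of all such windows. By gene, 14.3% of the tested genes with a window held it. With so few members, nothing follows from that about ETS factors.

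**Figure D2:**
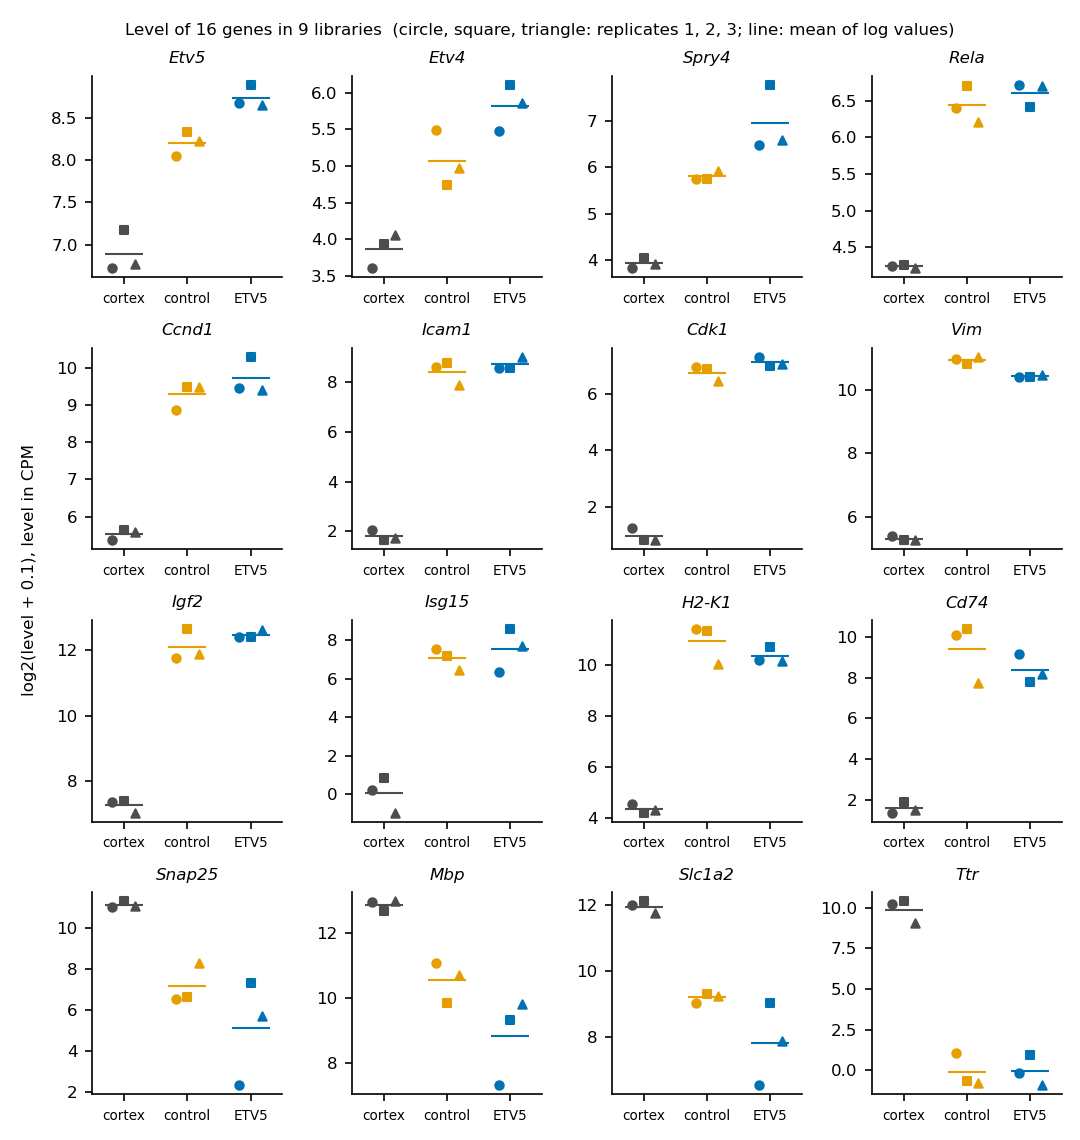
Levels of 16 genes in each of the 9 libraries of the table (cortex, control tumour and ETV5 tumour, 3 points each), as log2(CPM + 0.1) on the vertical axis of each panel. For Etv5 the ETV5 tumours sit at 407, 474 and 401 CPM and the cortex libraries at 106, 144 and 109, and in the panel of Etv5 the control tumours lie between.

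The fusion partners were both higher at their mouse loci. Rela rose from 18.9, 19.1 and 18.5 to 105, 85.2 and 104 CPM (log2 fold change 2.18 ± 0.15 (SE), adjusted p = 7.70e-05), and the mouse counterpart of ZFTA, which the table lists under its older symbol 2700081O15Rik, rose from 46.6, 39.9 and 37.0 to 264, 300.1 and 470.5 CPM (log2 fold change 2.84 ± 0.25 (SE), adjusted p = 1.98e-04). Whether reads of the introduced fusion were counted at these loci is not given in the sources used here. Among 15 tested genes that other work ties to this tumour type, 10 rose and 1 fell (3 without ETV5 replicate 2), with a median of 2.54. Igf2, a fetal growth factor, was the most abundant gene of the ETV5 tumours. It read 162, 167 and 130.0 CPM in cortex and 5499, 5404 and 6328 in tumours, a 33.1-fold rise with little spread between tumours (log2 fold change 5.05 ± 0.15 (SE), adjusted p = 2.91e-05). Notch1 rose 5.81-fold and Cdk6, the kinase partner of cyclin D1, 20.5-fold. The member that fell was L1cam, a neuronal adhesion molecule whose protein is used in human pathology as a marker of the fusion. It went from 147, 111 and 134 CPM in cortex to 2.76, 6.88 and 3.98 in ETV5 tumours (log2 fold change -5.08 ± 0.33 (SE), adjusted p = 7.72e-05), and control tumours, at 6.67, 9.80 and 15.8 CPM, also lay below cortex.

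Targets of NF-kB, the pathway to which RELA belongs, were higher: of 22 tested, 19 rose and 1 fell, with a median log2 fold change of 2.80. Icam1, an adhesion molecule that NF-kB induces on many cells, rose 107-fold, from 4.03, 3.02 and 3.20 CPM to 382, 388 and 522 CPM (log2 fold change 6.74 ± 0.20 (SE), adjusted p = 2.91e-05). Among chemokine genes, Ccl2 was at 0.269, 0.168 and 0.278 CPM in cortex and 33.2, 41.7 and 45.1 in tumours. Bcl3, an atypical inhibitor of NF-kB that also acts as its co-activator, had 2 reads in all of cortex and read 50.4, 23.2 and 42.3 CPM in ETV5 tumours, a ratio of 409 (95% interval 113 to 3381) from the read counts. Nfkb2, the p100 precursor that NF-kB itself induces, rose 14.8-fold. The exception was Sod2, the mitochondrial superoxide dismutase, which fell from 185, 199 and 183 to 107, 129 and 140.5 CPM. The NF-kB core (GGG, any 2 bases, then TTTCC, on either strand) was in 7 of 19 promoter windows, each the 250 bases before a start, of 16 members, against 1.41% of all 32851 windows. By gene, 6 of the 16 members held it, against 1.78% of the tested genes with a window. The list was made of known NF-kB targets, so this share describes the list and is not a result about these tumours. The windows of Cxcl1 (chr5:90890995-90891244 on the plus strand) and Nfkb2 (chr19:46304487-46304736 on the plus strand) are shown because they are the called members with a match that rose most, after RefSeq, build GRCm38.p6, with each match in capitals.
Cxcl1: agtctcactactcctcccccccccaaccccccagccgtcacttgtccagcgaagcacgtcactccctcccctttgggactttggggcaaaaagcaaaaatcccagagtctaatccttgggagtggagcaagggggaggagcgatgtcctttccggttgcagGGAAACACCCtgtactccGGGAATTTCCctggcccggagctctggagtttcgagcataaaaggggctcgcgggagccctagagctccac
Nfkb2: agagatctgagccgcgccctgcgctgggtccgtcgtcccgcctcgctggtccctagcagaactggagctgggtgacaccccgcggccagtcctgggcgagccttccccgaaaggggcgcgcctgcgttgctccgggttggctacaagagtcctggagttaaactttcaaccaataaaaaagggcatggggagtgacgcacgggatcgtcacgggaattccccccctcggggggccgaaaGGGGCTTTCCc
A match describes these letters and is not evidence of binding. Cxcl1, which attracts neutrophils, had 1 read in all of cortex and read 8.01, 5.08 and 8.15 CPM in the tumours, a ratio of 150.4 (95% interval 26.7 to 5971).

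ETV5 tumours held the transcripts of dividing cells, which the cortex nearly lacked. All 24 mitosis genes tested rose (median log2 fold change 4.73), and so did all 22 DNA replication genes (median 3.73). Cdk1, the kinase that drives entry into mitosis, read 2.28, 1.68 and 1.67 CPM in cortex and 158, 126 and 133 in tumours, a rise of 61.6-fold (log2 fold change 5.95 ± 0.20 (SE), adjusted p = 2.91e-05). Top2a, the topoisomerase of dividing cells, rose 42.8-fold to 235, 256 and 221 CPM. The spindle checkpoint kinase gene Bub1b rose 46.7-fold and the mitotic cyclin gene Ccnb2 39.6-fold. Among replication genes, Mcm6, part of the helicase that opens DNA, rose 27.4-fold, thymidylate synthase (Tyms) 31.9-fold and thymidine kinase (Tk1) 75.7-fold. Replicates lay close together, with per-tumour medians of 4.82, 4.79 and 4.6 for mitosis genes. Of 12 cell cycle inhibitors tested, which act as brakes, 5 rose and 7 did not pass (1 fell without ETV5 replicate 1 or 2). Cdkn2a, which encodes p16 and p19ARF, rose from 0.134, 0.168 and 0.696 to 229, 102 and 137 CPM (log2 fold change 8.38 ± 0.53 (SE), adjusted p = 7.18e-05), and its neighbour Cdkn2b rose 12.8-fold. Of 13 p53 targets tested, 3 rose, 2 fell and 8 did not pass, with Cdkn1a, Mdm2 and Bax among the latter. The number that fell was 4 without ETV5 replicate 3. It was 1 without any other 1 library, with scaling by totals or with the replicate number as a block. The median was 0.10, and ran from 0.04 to 0.33 over the alternatives. Fas and Bbc3 rose 6.92-fold and 2.31-fold, and Zmat3 fell to 25.3, 55.1 and 37.9 CPM from 113, 134 and 116 in cortex.

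The CCAAT box, bound by NF-Y and common before genes of the G2 and M phases, was present on either strand in 16 of 21 mitosis promoter windows, against 33.8% of all windows. By gene it preceded 15 of the 20 mitosis genes with a window, against 39.9% of the tested genes with one. Cdk1 (chr10:69352913-69353162 on the minus strand) held 3 matches and Bub1b (chr2:118597961-118598210 on the plus strand) 1, all on the reverse strand and so written ATTGG, in capitals.
Cdk1: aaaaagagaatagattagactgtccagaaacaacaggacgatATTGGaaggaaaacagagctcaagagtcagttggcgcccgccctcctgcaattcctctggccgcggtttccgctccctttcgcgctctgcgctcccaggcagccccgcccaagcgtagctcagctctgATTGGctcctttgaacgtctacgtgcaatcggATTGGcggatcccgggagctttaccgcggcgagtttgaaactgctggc
Bub1b: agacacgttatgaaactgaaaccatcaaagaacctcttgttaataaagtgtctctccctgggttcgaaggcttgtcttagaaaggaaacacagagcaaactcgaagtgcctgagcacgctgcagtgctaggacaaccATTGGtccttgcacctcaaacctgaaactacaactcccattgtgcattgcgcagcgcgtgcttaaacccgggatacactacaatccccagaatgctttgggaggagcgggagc
The E2F core TTCCCGCC was in none of 19 replication windows of this length and in 1.86% of all windows, and nothing follows from that about E2F.

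Genes of radial glia and neural stem cells moved both ways, as did all genes tested, of which 31.8% rose and 32.0% fell. Of the 18 on this list that were tested, 8 rose and 4 fell (2 without cortex replicate 1 or 2). Vim, which encodes the filament vimentin, read 41.9, 38.7 and 38.1 CPM in cortex and 1366, 1368 and 1433 in ETV5 tumours, a 30.8-fold rise with almost equal levels in the 3 tumours (log2 fold change 4.95 ± 0.11 (SE), adjusted p = 2.45e-05). Nes, the nestin gene, rose 23.1-fold to 216, 305 and 255 CPM. Sox9, a glial fate factor, rose 5.36-fold, the matrix gene Tnc 5.44-fold and the membrane glycoprotein gene Pdpn 7.57-fold. Ptprz1, a receptor phosphatase of outer radial glia and oligodendrocyte precursors, fell from 297, 317 and 275 to 88.6, 159 and 143 CPM, and Hopx fell 3.88-fold. Slc1a3, the glutamate transporter GLAST, read 1001, 1022 and 957 CPM in cortex and 88.2, 637 and 201 in tumours. All tumours lay below cortex, but they differed 7.23-fold among themselves, and the fall (log2 fold change -2.33 ± 0.66 (SE), adjusted p = 0.0196) was lost without ETV5 replicate 3 or any cortex replicate.

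Of 16 Sox genes 8 rose and 3 fell. Sox3, a neural progenitor factor, rose from 1.21, 0.671 and 0.835 to 9.45, 10.8 and 24.5 CPM, while Sox1, also expressed in progenitors, fell from 9.0, 10.4 and 17.3 to 0.394, 0.448 and 0.709 and Sox21 from 10.9, 13.6 and 10.3 to 0.787, 1.94 and 1.95. Of 14 forebrain patterning factors tested, 8 fell and 2 rose. Tbr1, which specifies deep-layer excitatory neurons, fell 57.8-fold, and Emx1, a marker of the cortical lineage, fell from 15.6, 14.8 and 12 to 0, 1.79 and 0.709 CPM. Dlx1, a factor of the interneuron lineage, fell 37.8-fold. Otx1 rose 7.51-fold to 30.8, 42.9 and 31.7 CPM, all above the cortex range of 4.84, 4.03 and 3.20. Pax6 was the other riser, at 13.2, 56.6 and 30.1 CPM against 8.33, 6.04 and 7.52, and its call was lost without ETV5 replicate 3 or any cortex replicate. None of the 26 Hox genes, which mark hindbrain and spinal cord, had enough reads to be tested, and the highest count for any of them in an ETV5 tumour was 20 reads.

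Transcripts of mature glia were lower. Of 14 myelin and oligodendrocyte genes tested, 12 fell and 1 rose, with a median log2 fold change of -4.29. Mbp, myelin basic protein and the most abundant gene of the cortex libraries, read 8081, 6587 and 8129 CPM there and 161, 641 and 905 in tumours (log2 fold change -4.24 ± 0.62 (SE), adjusted p = 0.00128). Mog, a glycoprotein of the myelin surface, fell 37.8-fold. The tumours held a median of 2.05%, 7.67% and 12.5% of the cortex level of this list in replicates 1, 2 and 3, so replicate 1 had the least. The riser was Trf, the iron carrier transferrin, at 1874, 1118 and 2081 CPM against 214, 180.3 and 251, a gene that other cells also express. Of 13 oligodendrocyte precursor genes tested, 4 fell, 1 rose and 8 did not pass, with a median of -0.22. Pdgfra, Cspg4, Olig1 and Olig2 were among those that did not pass. The number that rose was 3 without ETV5 replicate 2, in DESeq2 or with scaling by totals, and 2 with all 9 libraries in the fit. It was 0 without any 1 cortex replicate or ETV5 replicate 3. Gpr17 and Neu4, which mark committed precursors, fell 9.11-fold and 5.43-fold. Sox10, the lineage factor of oligodendrocytes, read 194, 75.5 and 337 CPM against 54.7, 48.6 and 55.1 in cortex, above it in every tumour, with a call (log2 fold change 1.5 ± 0.52 (SE), adjusted p = 0.0400) that was lost without any 1 cortex replicate or without ETV5 replicate 1 or 3.

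Of 14 astrocyte genes, 8 fell and 2 rose (1 without cortex replicate 2 or 3, or ETV5 replicate 2 or 3), with a median of -1.93. Slc1a2, the main glutamate transporter of astrocytes, read 4110.3, 4431 and 3466 CPM in cortex and 94.1, 519.6 and 237 in ETV5 tumours (log2 fold change -4.32 ± 0.58 (SE), adjusted p = 8.84e-04). Aldoc fell 6.57-fold and Sparcl1 7.80-fold. Clu, which encodes the secreted chaperone clusterin, rose 3.26-fold and was among the most abundant tumour genes at 5045, 3961 and 5363 CPM. Gfap, the astrocytic filament, read 342, 238 and 305 CPM in cortex and 514, 2271 and 2036 in tumours. All tumours were higher, replicate 1 by the least, and the call (log2 fold change 2.01 ± 0.57 (SE), adjusted p = 0.0200) was lost without ETV5 replicate 2 or 3 or cortex replicate 2 or 3. Genes of motile cilia, the hallmark of mature ependymal cells, were lower: 10 of 12 tested fell and 1 rose, with a median of -2.49. Drc1 fell from 14.5, 14.9 and 18.6 to 0.131, 2.09 and 0.709 CPM and Ccdc39 from 13, 10.9 and 12.4 to 2.62, 2.54 and 1.24. Hydin, a gene of the ciliary central pair, was the exception at 32.8, 14.2 and 69.3 CPM against 1.88, 2.18 and 2.37 (log2 fold change 3.64 ± 0.57 (SE), adjusted p = 0.00166). Dnah9, a defining ependymal marker, was below 1 CPM in each ETV5 tumour.

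Choroid plexus genes were mostly lower as well. Of 13 tested, 9 fell and 2 rose (1 without any cortex replicate or ETV5 replicate 1 or 2). Ttr, which encodes the thyroxine carrier transthyretin that the plexus secretes, went from 1213, 1346 and 531 CPM to 0.787, 1.79 and 0.443 CPM, a fall of 1074-fold (log2 fold change -10.07 ± 0.53 (SE), adjusted p = 5.05e-05). Cortex replicate 3 held less of it than the other cortex samples. Kl and Kcnj13, further markers of the plexus, fell 66.0-fold and 14.8-fold. Cldn2, a tight junction gene of leaky epithelia, rose to 67.3, 19.4 and 193 CPM from 5.64, 3.52 and 1.67.

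Neuronal transcripts were the largest group to fall. All 16 pan-neuronal genes tested, all 18 genes of synaptic vesicle release, all 24 glutamate and GABA receptor genes and all 18 neuropeptide precursors fell, with medians of -4.62, -4.86, -4.17 and -4.82. So did 12 of 13 excitatory neuron genes (median -5.62), 13 of 14 interneuron genes (median -4.68) and 18 of 20 voltage-gated channel genes (median -4.43). Snap25, part of the machinery that fuses synaptic vesicles, read 2016, 2473 and 2137 CPM in cortex and 4.99, 157 and 52.3 in tumours (log2 fold change -6.17 ± 1.16 (SE), adjusted p = 0.00358). Syt1, its calcium sensor partner, fell 64.4-fold. The tumours were all far below cortex, and replicate 1 was far below the others. Camk2a, the abundant kinase of excitatory synapses, fell from 3819, 4096 and 3271 to 22.1, 231 and 99.3 CPM, and Nrgn 55.6-fold. Gad1, which makes GABA, fell 46.0-fold, and the interneuron peptides Sst and Vip fell 66.8-fold and 75.1-fold. Among receptors, Grin2a fell 48.5-fold, and among channels Scn1a fell 48.3-fold and Kcnc2 54.6-fold.

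The genes with the largest falls were also of this kind. Gabrd, the delta subunit of extrasynaptic GABA receptors, went from 64.1, 77.8 and 84.5 to 0, 1.79 and 0.531 CPM (log2 fold change -7.25 ± 0.90 (SE), adjusted p = 6.61e-04). Camk4, a nuclear calcium kinase, fell 118-fold, Pcp4, which regulates calmodulin, 115-fold, and Calb1, the calcium buffer calbindin, 101-fold. Arpp21, a phosphoprotein of dopamine-responsive neurons, read 511, 632 and 1006 CPM in cortex and 1.97, 23.9 and 8.32 in tumours. Chrm1, the main muscarinic receptor of cortex, fell 93.2-fold and Grm2, a presynaptic glutamate receptor, 89.7-fold. Syndig1l had 2 reads in the 3 ETV5 tumours together against 19.6, 11.7 and 81.4 CPM in cortex, a ratio of 498 (95% interval 137 to 4119). Kif5a, among the most abundant cortex genes, fell from 3742, 4137 and 3705 to 33.9, 412 and 209 CPM.

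What was left of the neuronal signal differed between tumours. The median share of the cortex level over the excitatory neuron genes was 0.695% in ETV5 replicate 1, 9.02% in replicate 2 and 2.7% in replicate 3, and over the interneuron genes it was 1.31%, 8.02% and 3.13%. Of the 4635 genes called lower, replicate 1 was the lowest tumour for 2485 (53.6%). In control tumours the excitatory share was 6.72%, 8.2% and 12.7%. Immediate early genes, induced by neuronal activity and by handling, followed: 9 of 15 fell and 1 rose (2 without ETV5 replicate 2, with the replicate number as a block or with scaling by totals). Egr4 fell 107-fold, Npas4 102-fold and Arc, which localises to active synapses, from 352, 619 and 406 to 8.92, 97.3 and 6.73 CPM. Ier2 was the one that rose with all libraries (log2 fold change 1.34 ± 0.21 (SE), adjusted p = 0.00167). Immature neuron genes were mostly lower as well: 7 of 11 tested fell and 2 rose (1 without cortex replicate 1 or in limma-voom). Among the former was Dcx, the microtubule protein of migrating neurons, from 50.5, 39.4 and 42.2 to 3.67, 11.4 and 9.74 CPM. Draxin, an axon guidance gene, rose to 8.79, 85.2 and 30.2 CPM from 2.69, 2.35 and 2.09.

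The title of the series concerns histone serotonylation, the attachment of serotonin to histones by transglutaminase 2. Tgm2, the gene of that enzyme, read 10.9, 10.1 and 12 CPM in cortex and 508, 124 and 281 in ETV5 tumours. Every tumour was far above every cortex library (log2 fold change 4.38 ± 0.47 (SE), adjusted p = 3.97e-04), and replicate 2 was the lowest of them. It was the only riser among 16 serotonin genes tested (2 without ETV5 replicate 2), of which 13 fell, with a median of -3.00. The fallers were mainly receptors, led by Htr1a, from 31.6, 23.8 and 17.0 to 0, 1.20 and 0.266 CPM, and Htr2c, from 35.9, 32.7 and 88.3 to 0.394, 1.20 and 1.06 CPM. Htr5a and Htr7 fell 38.0-fold and 28.6-fold. The shares of neuronal transcript given above are low in the same tumours, and their part in the fall of these receptors was not tested.

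Genes of immunity rose together. All 23 interferon response genes tested rose (median log2 fold change 5.76), as did all 12 MHC class I and peptide loading genes (4.98), all 8 MHC class II genes (4.09) and all 16 complement genes (3.32). Isg15, the ubiquitin-like protein that interferon induces, read 1.07, 1.68 and 0.418 CPM in cortex and 82.5, 379.6 and 210.4 in tumours, lowest in replicate 1 and highest in replicate 2 (log2 fold change 7.30 ± 0.68 (SE), adjusted p = 2.24e-04). Irf7, which amplifies the interferon response, rose 165-fold and Oas1a, a sensor of double-stranded RNA, 126-fold. Zbp1, a sensor of Z-form nucleic acid, read 85.2, 103 and 207 CPM where cortex had 4 reads in all. Oas1a has close paralogs and its value is uncertain to the extent that reads were shared. The core of the interferon-stimulated response element (GAAA, any 2 bases, GAAA, on either strand) was in 9 of 19 windows of 16 members, against 2.98% of all windows. By gene, 9 of the 16 members held it, against 3.26% of the tested genes with a window. The list was made of known interferon response genes, so this share describes the list and is not a result about these tumours. Isg15 (chr4:156200819-156201068 on the minus strand) and Oas1a (chr5:120907526-120907775 on the minus strand) are shown as the largest risers with a match, in capitals where overlapping matches run together.
Isg15: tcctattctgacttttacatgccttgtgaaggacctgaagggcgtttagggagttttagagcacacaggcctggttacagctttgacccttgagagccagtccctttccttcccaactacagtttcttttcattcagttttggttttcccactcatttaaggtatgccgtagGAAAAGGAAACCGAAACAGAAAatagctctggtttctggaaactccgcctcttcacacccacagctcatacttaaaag
Oas1a: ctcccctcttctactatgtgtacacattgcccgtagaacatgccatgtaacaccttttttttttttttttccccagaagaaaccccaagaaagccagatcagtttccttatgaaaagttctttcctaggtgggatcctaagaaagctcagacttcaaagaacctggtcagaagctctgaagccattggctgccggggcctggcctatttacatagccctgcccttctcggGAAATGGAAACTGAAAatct
The Isg15 window holds 3 matches, the farthest beginning 78 bases before the start, and the Oas1a window 2, the farthest beginning 20 bases before it.

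H2-K1, a classical MHC class I gene, read 23.1, 18.3 and 19.8 CPM in cortex and 1149.9, 1638 and 1119.7 in ETV5 tumours (log2 fold change 5.79 ± 0.18 (SE), adjusted p = 2.91e-05). Psmb8 and Psmb9, subunits of the immunoproteasome that cuts peptides for class I, rose 96.7-fold and 48.7-fold. Cd74, the chaperone of class II, rose from 2.55, 3.69 and 2.78 to 572, 222 and 285 CPM (log2 fold change 6.56 ± 0.36 (SE), adjusted p = 5.43e-05), and H2-Aa 61.5-fold. The H2 genes resemble each other, so the split of reads between them is uncertain. H2-Eb1 had another order among tumours than H2-Aa, with 10.5, 56.2 and 72.5 CPM against 299, 94.9 and 104 CPM. C3, the central complement component, rose from 0.672, 0.335 and 0.975 to 653, 223 and 353 CPM (log2 fold change 8.80 ± 0.47 (SE), adjusted p = 5.05e-05), and the alternative pathway factor Cfb 205-fold. Saa3 and Lcn2, acute phase genes, also rose: Saa3 had no read in cortex and was at least 314-fold higher, and Lcn2 rose 328-fold.

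Myeloid genes were taken as a list of resting microglia and a list of phagocytic macrophages. Of 12 homeostatic microglia genes tested, 3 rose and 2 fell (1 without cortex replicate 2). The number that rose was 5 in DESeq2 or with scaling by totals, and 7 without ETV5 replicate 1, which had the lowest summed level of the list (a sum of 1030.2, 1637 and 2020.2 CPM in the tumours and 645, 737 and 653 in cortex). P2ry12, a receptor that resting microglia carry, fell from 91.3, 115 and 92.7 to 29.7, 60.4 and 57.7 CPM (log2 fold change -1.26 ± 0.31 (SE), adjusted p = 0.0113). Tmem119, another microglial surface gene, rose to 249, 394 and 526 CPM from 38.1, 48.0 and 40.4 (log2 fold change 2.96 ± 0.30 (SE), adjusted p = 3.02e-04). Of 20 macrophage genes, 14 rose and 1 fell (2 without ETV5 replicate 1), with a median of 2.45. Spp1, the osteopontin gene, rose from 4.70, 2.85 and 3.62 to 975, 1229 and 369 CPM and Gpnmb from 1.75, 0.671 and 1.25 to 159, 222 and 1048. Gpnmb, a gene of lipid-laden macrophages and pigment cells, was far higher in replicate 3 than in the others. Msr1, a scavenger receptor, rose 190.1-fold, and Arg1, with 1 read in cortex, stood at a ratio of 516 (95% interval 92.3 to 20425). Apoe, abundant in both tissues, read 1704, 2005 and 2035 CPM in cortex and 1878, 4105 and 4465 in tumours and did not pass (log2 fold change 0.58 ± 0.35 (SE), adjusted p = 0.182) except without ETV5 replicate 1 (1.0).

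Lymphocyte genes were mostly too low to test: 4 of the 17 in the table passed the filter. Of these 4, 1 rose, 1 fell (Cd4) and 2 did not pass (Lck and Cd79a). The number that rose was 7 with no filter. It was 2 in edgeR or DESeq2, with scaling by totals, with all 9 libraries or without ETV5 replicate 1 or 3. The number that fell was 0 in limma-voom, with scaling by totals, or without cortex or ETV5 replicate 1 or 3. The riser was Ptprc, the pan-leukocyte gene CD45, at 33.2, 54.2 and 70.7 CPM from 3.49, 3.19 and 3.20. The neutrophil genes S100a8 and S100a9 rose to 3.02, 11.8 and 13.9 CPM and 6.69, 21.2 and 26.6 CPM, low levels from close to 0. Cxcl13, which attracts B cells, had 1 read in cortex and 45.3, 156 and 159 CPM in tumours, a ratio of 2564 (95% interval 459.8 to 101298).

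Vessels and matrix were next. Of 16 brain endothelial genes, 9 rose and 1 fell (3 without ETV5 replicate 2 and 2 in DESeq2). Vwf, the clotting factor of endothelium, rose from 10.6, 9.89 and 10.3 to 61.1, 48.9 and 56.6 CPM, the angiopoietin co-receptor Tie1 rose 3.34-fold and the junction cadherin Cdh5 5.35-fold. Slco1a4, a transporter of the blood-brain barrier, was the member that fell, from 45.0, 31.9 and 26.9 to 2.49, 23 and 10.01 CPM, a log2 fold change of -2.18 that was -1.31 without ETV5 replicate 1 and lost its call without ETV5 replicate 3 or any 1 cortex replicate, in edgeR (-1.72), with scaling by totals (-1.99) and with the replicate number as a block (-2.18). Of 12 pericyte and smooth muscle genes 2 rose and 2 fell, and 6 rose without ETV5 replicate 2. Pdgfrb, the receptor that recruits pericytes, rose 6.20-fold to 240.3, 162 and 167 CPM, while Vtn, the vitronectin gene that brain pericytes express, fell from 63.4, 60.7 and 62.9 to 14.6, 8.22 and 11 CPM (log2 fold change -2.68 ± 0.22 (SE), adjusted p = 1.47e-04). Of 12 meningeal fibroblast genes 4 rose and 5 fell, and without cortex replicate 2 or 3 the numbers were 2 and 3. Igf2 is 1 of the risers and its tumour level exceeded that of each other member. The other risers were Dcn, Lum and Foxc1, and Ogn did not pass. Among the 5 members that fell were the solute carrier genes Slc13a4 and Slc22a6, which meninges express, by 7.63-fold and 24.9-fold.

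Collagens rose in 15 of 22 chains tested and fell in 1 (in none without cortex replicate 3, without ETV5 replicate 3 or in edgeR), with a median log2 fold change of 3.28. Col1a1, the main fibrillar chain, read 18.1, 12.8 and 12.1 CPM in cortex and 662, 934 and 591 in ETV5 tumours (log2 fold change 5.47 ± 0.22 (SE), adjusted p = 3.10e-05). Col18a1, the basement membrane chain from which endostatin is cut, rose 152-fold to 1796, 597 and 899 CPM, highest in replicate 1. Col9a1, a chain of cartilage, rose 38.0-fold, and Col23a1, a transmembrane collagen, 28.9-fold. Of 30 further matrix genes 22 rose and 2 fell (median 2.57). Loxl2 and Loxl1, which crosslink collagen, rose 182-fold and 31.6-fold, the basement membrane proteoglycan gene Hspg2 25.2-fold and the aggrecan gene Acan 64.4-fold. Sparc, a matrix glycoprotein, reached 6575, 1862 and 2716 CPM from 519, 504 and 557 in cortex. The protease inhibitors Timp2 and Timp4 were the fallers, Timp2 from 317, 226 and 300.4 to 103, 144 and 118 CPM and Timp4 from 46.8, 43.8 and 42.0 to 9.19, 22.7 and 20.4. Tinagl1, a secreted protein of the matrix, rose 311-fold to 2159, 629 and 2682 CPM.

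Genes that neither brain nor ependyma is known for were among those with the largest rises. Of 14 gonadal and mesodermal genes tested, 10 rose, with a median of 5.52, the same with the 3 genes without cortex reads set at their lower bounds, and 0 fell (3 without ETV5 replicate 1, and 1 without ETV5 replicate 2 or 3 or cortex replicate 2). The median was 3.38 without ETV5 replicate 1, 3.48 without cortex replicate 2, 3.66 when genes averaging 1 CPM or more were kept and 2.57 with no filter. Nr5a1, the steroidogenic factor of adrenal and gonad, had 0 reads in all of cortex and 363, 56.0 and 273 CPM in ETV5 tumours, so it was at least 1668-fold higher (adjusted p = 8.40e-05). The bound sets 3 reads over the cortex group and covers counting error only. Akr1cl, an aldo-keto reductase gene, likewise had no cortex read and was at least 781-fold higher. Wt1, a factor of kidney, gonad and mesothelium, had 3 cortex reads and read 356, 52.3 and 126 CPM, a ratio of 1202 (95% interval 411 to 5832). Gata4, a factor of heart and gonad, had 1 and read 262, 21.1 and 27.4 CPM, a ratio of 1970.3 (95% interval 353 to 77856). Amh, the anti-Müllerian hormone of Sertoli cells, read 213, 8.52 and 42.0 CPM. In Wt1, Gata4 and Amh replicate 1 was the highest by far, and in Nr5a1 replicate 2 was the lowest. The ACTH receptor gene Mc2r, at 76.0, 45.9 and 92.9 CPM, and Nr0b2, at 111, 34.5 and 186 CPM, were further risers of the adrenal and nuclear receptor kind. Inhbb, a subunit of inhibin and activin that brain also expresses, rose from 8.87, 7.88 and 7.38 to 350.5, 180.1 and 177 CPM (log2 fold change 4.59 ± 0.27 (SE), adjusted p = 6.41e-05).

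Tnnt3, the troponin T of fast skeletal muscle, had the largest fitted rise of all named genes. It read 0.537, 0.335 and 0 CPM in cortex, 6 reads in all, and 485, 655 and 515 in ETV5 tumours (log2 fold change 10.51 ± 0.62 (SE), adjusted p = 6.28e-05), evenly in all of them. Of 14 troponin and sarcomere genes tested, 3 rose and 7 fell. Tnni3, the cardiac troponin I, read 162, 41.7 and 3.72 CPM, mostly in replicate 1, with 3 reads in cortex (ratio 417 (95% interval 142 to 2022)), and Ttn rose 11.5-fold. Acta1, skeletal actin, fell from 8.06, 11.9 and 9.74 to 0.394, 1.05 and 0.886 CPM, and Myl4 and Myh7 fell 15.7-fold and 25.8-fold.

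Of 17 imprinted genes tested 6 rose, 4 fell and 7 did not pass. H19, the noncoding neighbour of Igf2, went from 4.43, 3.52 and 2.92 to 932, 4591 and 367 CPM, a called rise with a 12.5-fold range between tumours (log2 fold change 8.11 ± 0.84 (SE), adjusted p = 3.33e-04). Dlk1, a Notch-like fetal ligand, rose from 2.15, 2.18 and 16.6 to 646, 961 and 588 CPM. Meg3, the noncoding RNA of the same cluster, fell from 1518, 1188 and 1619.8 to 229.6, 242 and 261 CPM, and Rian, also of that cluster, 2.15-fold. Ndn, the necdin gene of postmitotic neurons, fell 11.2-fold. Igf2os, which is transcribed antisense to Igf2, rose 531-fold, and because the counting is not stated to use strand its reads and those of Igf2 cannot be told apart. Of 15 genes of the insulin-like growth factor axis 6 rose, 1 fell and 8 did not pass. The number that fell was 4 without ETV5 replicate 1 or with all 9 libraries in the fit, 2 without ETV5 replicate 2 or in limma-voom, and 0 without cortex replicate 2 or 3. Igf2r, which clears it, rose from 41.0, 39.1 and 40.1 to 217, 144 and 229.7 CPM, and the binding protein genes Igfbp3 and Igfbp7 rose 16.2-fold and 19.2-fold. Igfbp6, also of a binding protein, fell from 21.8, 49.0 and 28.8 to 12.3, 5.08 and 17.4 CPM (log2 fold change -1.77 ± 0.53 (SE), adjusted p = 0.0238), a call lost without cortex replicate 2 or 3 and with the block (-1.77).

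Signalling genes changed in both directions, as did all genes tested, of which 31.8% rose and 32.0% fell. Of 24 growth factor receptor kinases and ligands 9 rose and 8 fell, near those shares, with a median of -0.04. Erbb2, an EGF family receptor without a ligand of its own, rose from 3.63, 2.18 and 2.51 to 232, 121 and 135 CPM (log2 fold change 5.60 ± 0.30 (SE), adjusted p = 5.05e-05), and Axl, a receptor of the TAM family, 13-fold. Pdgfb, the ligand of Pdgfrb, rose 6.99-fold. The neurotrophin receptor Ntrk3 fell from 71.1, 61.0 and 67.4 to 9.45, 10.9 and 12.8 CPM, and the neuronal FGF homologues Fgf12 and Fgf13 fell 29.6-fold and 30.1-fold. Ngfr, the low-affinity neurotrophin receptor, rose 311-fold to 501, 1516 and 607 CPM. Fgf15, an FGF of the embryonic forebrain, had 1 read in cortex and 35.4, 282 and 58.6 CPM in tumours, a ratio of 2267 (95% interval 407 to 89577), with replicate 2 far above the others.

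In the Hedgehog pathway 8 of 12 genes rose and 3 fell, with a median of 1.92. Smo, the signal transducer, rose 5.67-fold, and the co-receptor genes Cdon and Gas1 14.6-fold and 9.15-fold, whereas the ligand trap Hhip fell 10.1-fold. In the Notch pathway 7 of 16 rose and 2 fell (4 without ETV5 replicate 3). Notch2 rose 4.88-fold and Lfng, which tunes ligand choice, 7.85-fold, while the ligand gene Jag2 and the target Hey1 fell 4.17-fold and 2.44-fold. Of 26 Wnt pathway genes 12 rose and 5 fell, with Wnt10a at 227, 149 and 543 CPM against 2.28, 5.54 and 2.65 and the receptor Fzd9 up 12.6-fold, and Wnt9a down 9.19-fold. Of 23 TGF-beta, BMP and activin genes 13 rose and 4 fell (2 without cortex replicate 2 or 3). Bmp7 rose from 17.1, 18.3 and 18.6 to 339.7, 549.7 and 446 CPM (log2 fold change 4.41 ± 0.20 (SE), adjusted p = 3.65e-05), and the inhibitory Smad6 25.6-fold, while Gdf10 fell 10.5-fold.

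**Figure D3:**
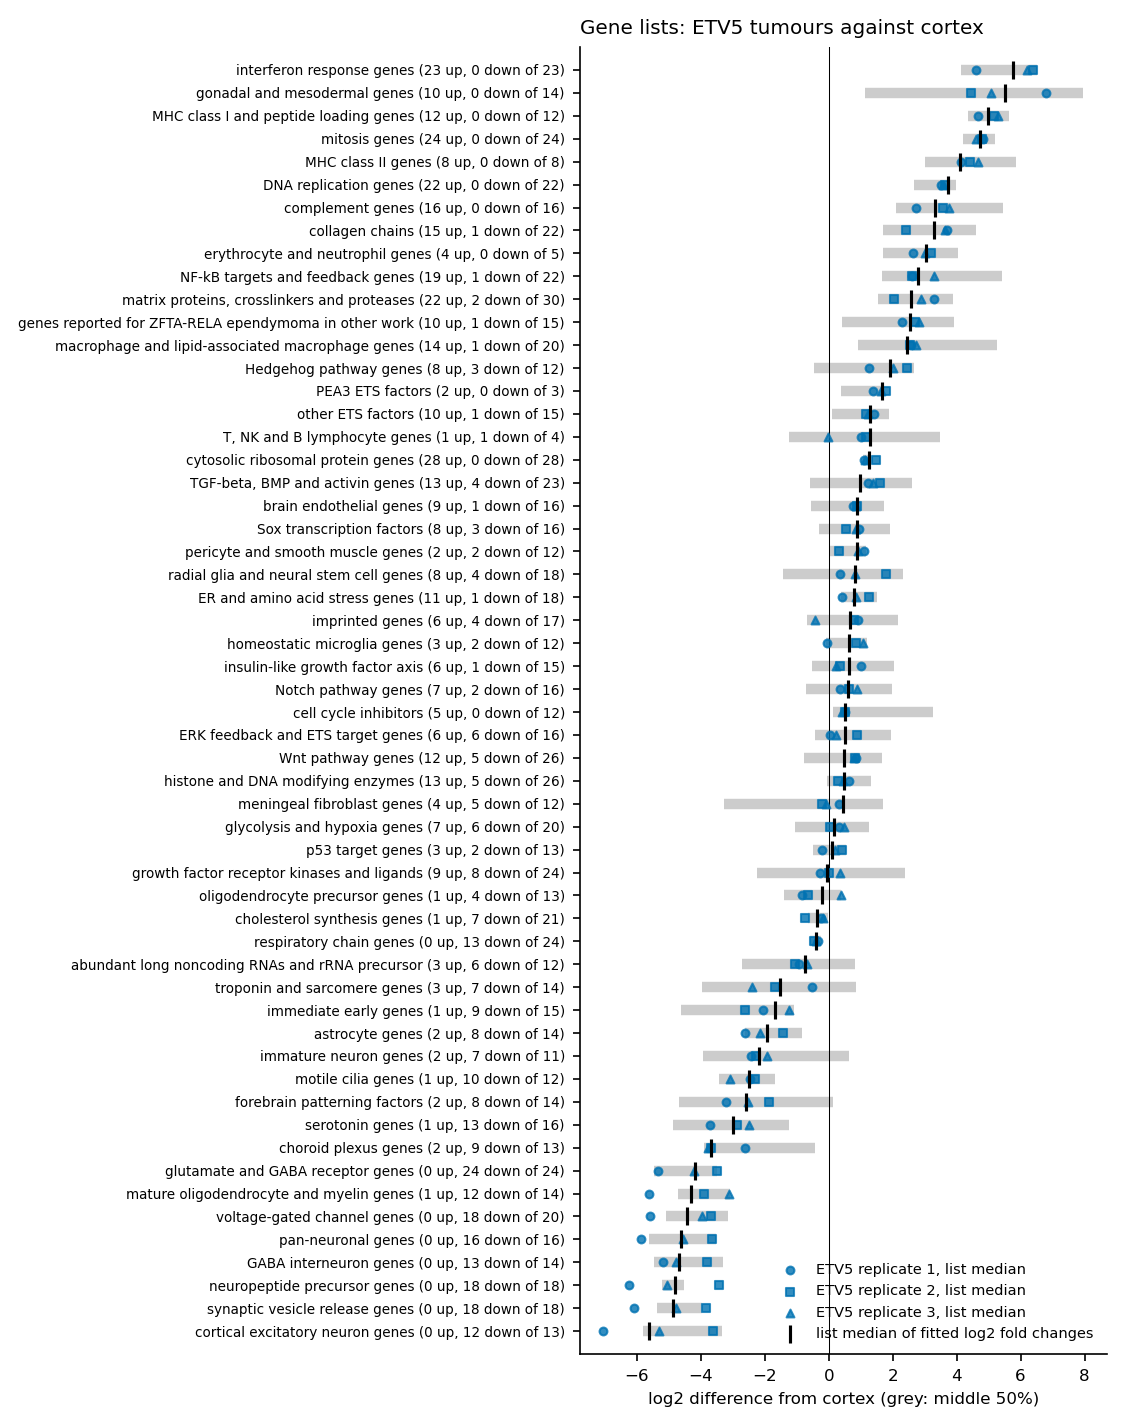
Median log2 fold change against cortex of each of the 56 gene lists with at least 3 tested members (1 row per list): points are the 3 ETV5 tumours, the tick is the median of the fitted values and the bar its middle 50%. Interferon response genes lie at the top (5.76) and excitatory neuron genes at the bottom (-5.62), and 35 of the fitted medians are above 0.

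In metabolism, each of 28 cytosolic ribosomal protein genes rose, with a median log2 fold change of 1.26 and a narrow middle 50% from 1.08 to 1.33. Rplp0 read 313, 293 and 335 CPM in cortex and 1477, 1683 and 1236 in tumours, though these genes have many pseudogenes that can share their reads. Nuclear genes of the respiratory chain went the other way by a small margin: 13 of 24 fell and 0 rose, with a median of -0.40. The number that fell was 5 when libraries were scaled by their totals or without cortex replicate 2, 6 without cortex replicate 3 and 8 with the replicate number as a block, and the median was -0.22 with scaling by totals. Sdha, a subunit of complex II, fell from 383, 388 and 379 to 275, 231 and 201 CPM (log2 fold change -0.90 ± 0.13 (SE), adjusted p = 0.00112).

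Of 20 glycolysis and hypoxia genes 7 rose and 6 fell, near the shares of all genes tested (31.8% rose and 32.0% fell). Hk2, the hexokinase of growing cells, rose from 5.10, 4.36 and 4.18 to 107, 46.9 and 64.8 CPM, while Hk1 and the muscle-type phosphofructokinase Pfkm fell 2.13-fold and 5.24-fold. The neuronal glucose transporter gene Slc2a3 fell from 188, 184 and 191 to 13.2, 25.4 and 15.8 CPM and the lactate exporter gene Slc16a3 rose 12.6-fold. The hypoxia genes Egln3 and Adm rose 9.97-fold and 8.86-fold. Of 21 cholesterol synthesis genes 7 fell and 1 rose (4 fell without cortex replicate 2, and 3 rose without ETV5 replicate 2). Of 18 ER and amino acid stress genes 11 rose and 1 fell (7 rose without any 1 cortex replicate, and 3 fell without ETV5 replicate 2). Trib3 and Atf3, which the ATF4 pathway induces, rose 52.6-fold and 18.8-fold, and Slc7a11, the cystine transporter, fell from 111, 102 and 102 to 25.5, 55.6 and 36.0 CPM.

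Of 26 histone and DNA modifying enzymes 13 rose and 5 fell (3 without cortex replicate 1 or 3 or ETV5 replicate 3). Uhrf1, which maintains DNA methylation at replication, rose from 3.09, 3.69 and 2.78 to 150.1, 207 and 192 CPM (log2 fold change 5.60 ± 0.21 (SE), adjusted p = 2.91e-05). Ezh2, the H3K27 methyltransferase, rose 5.44-fold and Kdm6b, which removes that mark, 4.13-fold. The deacetylase genes Hdac5 and Hdac9, which are abundant in neurons, fell 3.01-fold and 3.56-fold, and Tet1 fell from 29.1, 19.3 and 20.3 to 9.84, 4.04 and 6.29 CPM. Of 12 genes on a list of long noncoding RNAs and the rRNA precursor, which also held the protein-coding gene Lars2, 6 fell and 3 rose. Lars2 did not pass. Neat1, the scaffold of paraspeckles, rose 7.12-fold, and the neuronal Snhg11 and Miat fell 60.1-fold and 46.5-fold. Rn45s, the rRNA precursor, read 735, 3943 and 732 CPM in cortex and 1409, 1079 and 5503 in ETV5 tumours. It was high in cortex replicate 2 and in ETV5 replicate 3, and did not pass (log2 fold change 0.48 ± 0.88 (SE), adjusted p = 0.655), and its part in other results was not tested.

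The 3 ETV5 tumours did not resemble each other in all genes. Of genes called against cortex with at least 50 CPM on average in the tumours, those with the widest range between tumours included Upk3b, a mesothelial and urothelial gene, at 1292, 106 and 27.1 CPM, and Amhr2, the receptor for anti-Müllerian hormone, at 217, 15.2 and 2.13. Amhr2 rose (log2 fold change 4.16 ± 1.51 (SE), adjusted p = 0.0475), with a log2 fold change of 2.44 without ETV5 replicate 1, and its call was lost without any 1 cortex replicate or ETV5 replicate 2. Aard, a Sertoli cell gene, had the same order, 336, 26.3 and 4.87 CPM, a log2 fold change of 2.27 without ETV5 replicate 1 against 3.88 with it, and lost its call in the same cases. Muc6, a gastric mucin, and Cdh3, the placental cadherin, were likewise highest in replicate 1, at 345, 78.5 and 139 and 126, 4.18 and 34.8 CPM. Aqp1, a water channel, was instead low in replicate 3 alone (236, 201 and 12.1 CPM), and its call was lost without any 1 library but ETV5 replicate 3. Over the gonadal and mesodermal list as a whole the tumours lay at median log2 differences of 6.79, 4.44 and 5.07 from the cortex mean, and over the pan-neuronal list at -5.87, -3.65 and -4.54, so replicate 1 was the highest in the former and the lowest in the latter.

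Replicate 2 stood out in patterning genes of the forebrain. Six3 read 1.18, 71.3 and 4.43 CPM and Emx2 3.41, 45.0 and 1.33, against 3.76, 2.35 and 16.3 and 11.2, 14.3 and 9.47 in cortex, and neither passed, although Emx2 was called lower without ETV5 replicate 2 (-2.52). Replicate 2 also had the highest Spry4, Fgf15 and Isg15 of the 3. Replicate 3 had the highest Gpnmb, Sox10 and Rn45s. Cdkn1c, the imprinted cell cycle inhibitor p57, covered the widest span of the genes plotted, 178, 845 and 4.34 CPM, and did not pass (log2 fold change 3.20 ± 1.75 (SE), adjusted p = 0.151). It was called without ETV5 replicate 3 (5.32) and, with all libraries, in edgeR (5.16) and DESeq2 (5.15). Col3a1, a fibrillar collagen, was high in replicate 1, at 406, 62.9 and 26.5 CPM against 24.7, 18.1 and 18.2 in cortex, and did not pass either (log2 fold change 1.94 ± 0.91 (SE), adjusted p = 0.103), though it was called in the same 3 cases (2.77, 2.80 and 2.81). Leaving out ETV5 replicate 1 moved the fold change of 53 of the 219 called genes named here by over 1.5 times, replicate 2 that of 48 and replicate 3 that of 16, and none of them changed direction. Snap25, at -6.17 on the log2 scale, was -4.77 without replicate 1 and -7.24 without replicate 2.

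**Figure D4:**
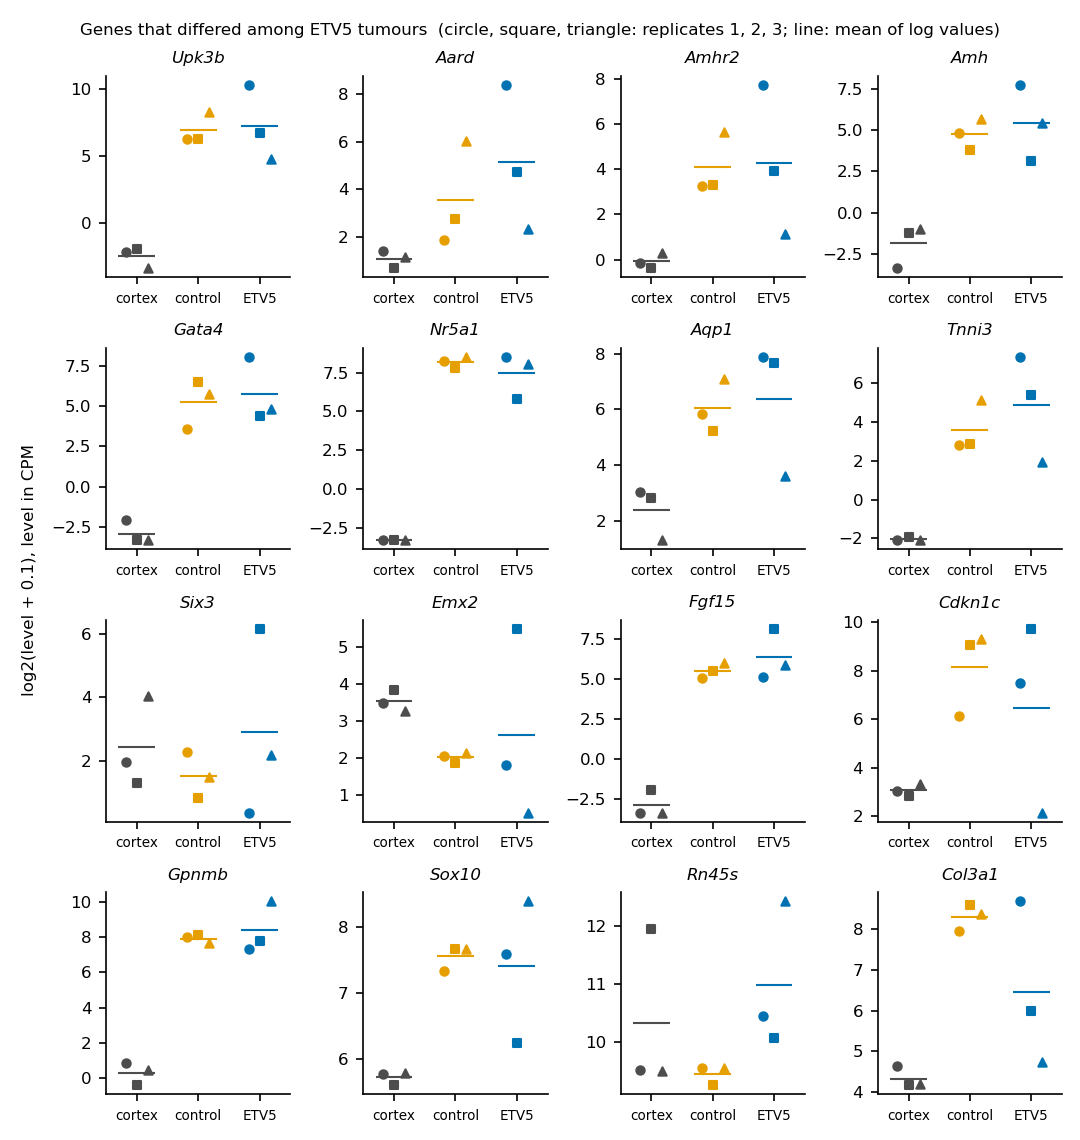
Levels of 16 genes in the 3 ETV5 tumours, with cortex and control tumours beside them, as log2(CPM + 0.1) per library. The genes were picked as examples that differed between the ETV5 tumours. Upk3b spans 1292, 106 and 27.1 CPM and Cdkn1c 178, 845 and 4.34 CPM in replicates 1, 2 and 3.

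Control tumours share the cortex libraries as their comparator, so their fold changes against cortex are not independent of those above and are given only side by side. Of 14621 genes tested there, 5225 were higher (35.7%) and 5296 lower (36.2%). Ccnd1 had a log2 fold change of 4.01 in ETV5 and 3.59 in control tumours, Cdk1 5.95 and 5.60, Igf2 5.05 and 4.69, Vim 4.95 and 5.46, Snap25 -6.17 and -4.13, and Nr5a1, at 303, 227 and 368 CPM in control tumours, was high in both. Tested directly, ETV5 tumours against control tumours, 0 of 14382 genes passed in limma, edgeR's quasi-likelihood test or limma-voom, and 75 did in DESeq2. The lowest adjusted p in limma was 0.732. At an unadjusted p under 0.05 there were 944 genes, 6.56% of those tested. By the limma test no gene named here can therefore be assigned to ETV5 rather than to the tumour. The 75 genes that DESeq2 called are not listed here, so whether a gene named here is among them is not given. A p above the threshold does not show that the tumours were alike.

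The direct differences of some of the genes above are given as values, each with an unadjusted p under 0.05, as 6.56% of all genes tested had. Other genes above had a higher unadjusted p in limma, among them Rela (0.438), Ccnd1 (0.204), Igf2 (0.233), Cdk1 (0.123) and Nr5a1 (0.315). Mouse Etv5 read 407, 474 and 401 CPM in ETV5 and 264, 322 and 299.5 in control tumours, without overlap (log2 fold change 0.52 ± 0.16 (SE), unadjusted p = 0.0127, adjusted p = 0.732). Spry4 read 89.0, 219 and 95.7 against 53.7, 53.4 and 60.00 CPM, also without overlap (log2 fold change 1.13 ± 0.34 (SE), unadjusted p = 0.0144, adjusted p = 0.732), and Etv4 44.4, 69 and 57.8 against 45.1, 26.6 and 31.3 (log2 fold change 0.73 ± 0.26 (SE), unadjusted p = 0.0284, adjusted p = 0.732). Vim was lower in each ETV5 tumour, 1366, 1368 and 1433 against 2024, 1799 and 2120.3 CPM (log2 fold change -0.52 ± 0.14 (SE), unadjusted p = 0.00812, adjusted p = 0.732), and so was Tnc, at 94.2, 47.7 and 59.5 against 139.7, 156 and 131 CPM (log2 fold change -1.15 ± 0.26 (SE), unadjusted p = 0.00359, adjusted p = 0.732). Vtn read 14.6, 8.22 and 11 against 29.5, 35.0 and 28.7 CPM (log2 fold change -1.5 ± 0.26 (SE), unadjusted p = 8.62e-04, adjusted p = 0.732), and Col1a1 662, 934 and 591 against 1449, 2293 and 1263 (log2 fold change -1.19 ± 0.29 (SE), unadjusted p = 0.00575, adjusted p = 0.732). Sox1, which had fallen from cortex in both tumour sets, read 0.394, 0.448 and 0.709 CPM in ETV5 tumours, below the 3.18, 2.09 and 4.15 CPM of control tumours, with unadjusted p = 0.00235 and adjusted p = 0.732. H2-Eb1 was higher in 2 of 3 ETV5 tumours than in any control tumour, at 10.5, 56.2 and 72.5 against 6.46, 12.9 and 1.12 CPM (log2 fold change 2.88 ± 1.08 (SE), unadjusted p = 0.0339, adjusted p = 0.732).

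**Figure D5:**
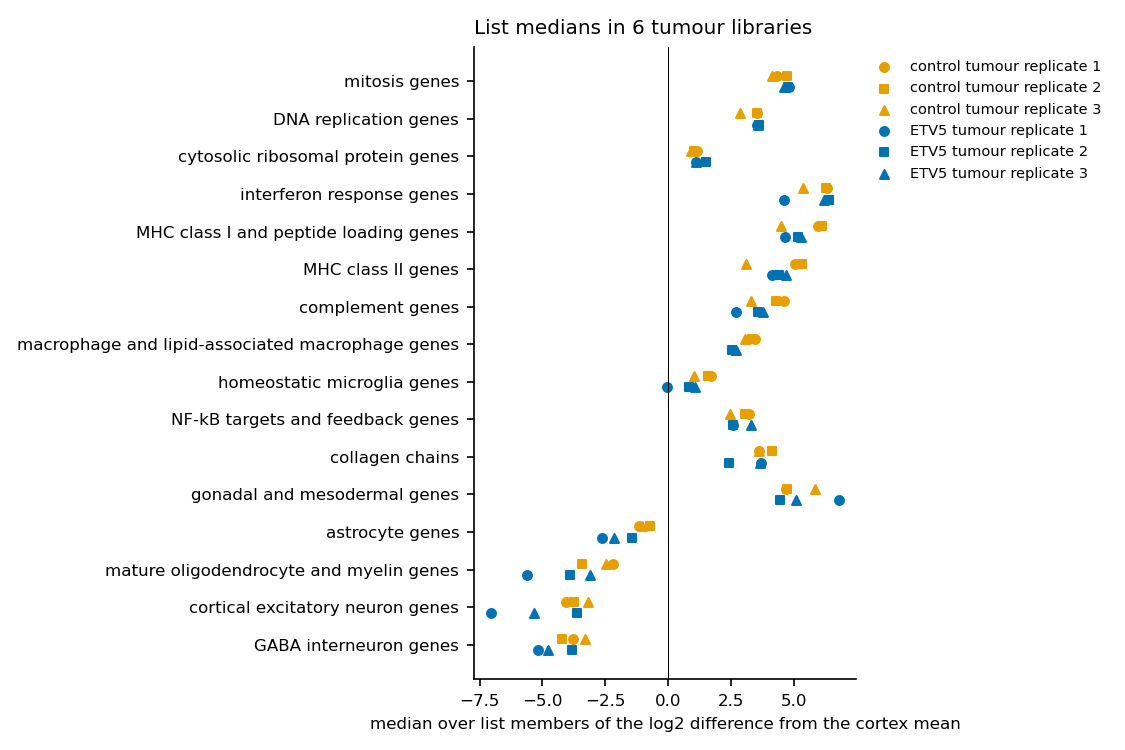
Median log2 difference from the cortex mean of 16 gene lists in each of the 3 control and 3 ETV5 tumour libraries. For excitatory neuron genes the ETV5 tumours lie at -7.04, -3.62 and -5.32 and the control tumours at -4.06, -3.73 and -3.18.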

How the data were processed

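The authors deposited a table of 24421 mouse genes with a normalized signal per library. Per the submitters' processing notes, build mm10, STAR 2.5.0a, DESeq2 1.30.1, MultiQC 1.6 and FastQC 0.11.7 were used; for the counting tool and the annotation, none is given in the sources used here. Per the labels' protocols, 300 ng of total RNA went into stranded, paired-end mRNA libraries. In each deposited column 1 read was worth 1 fixed step of signal, and division by it gave whole reads (within 0.01) for 100% of values, and CPM were computed from these reads. Dates stood in place of 27 symbols, and 2 symbols were repeated.

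The test planned for raw counts, edgeR's quasi-likelihood test, was kept as an alternative because the columns hold scaled signal. Instead limma 3.58.1 (R 4.3.3, trend and robust moderation) was run on log2(signal + 1), two-sided, with group as the only term, on genes passing edgeR's filter (minimum count 10, total 15). Genes were called at an adjusted p under 0.05 (Benjamini-Hochberg, all genes tested). On the recovered reads edgeR 4.0.16 called 9196 genes, DESeq2 1.42.0 called 9609 and limma-voom 9058. On simulated data (5 draws, 200 changed genes, 14309 tested) limma recovered 5.67% of 2-fold and 65.4% of 4-fold changes, with 5.77% false calls. The simulation changed far fewer genes than were called in the data, so these rates do not carry over to the data. Folds over a group with 0 reads are bounds that take its total as 3 reads, and those over 1 to 3 reads carry an exact 95% interval (Clopper-Pearson). Such bounds and intervals speak of counting error alone. Replicate numbers were not treated as pairs: residuals of same-numbered ETV5 and cortex libraries correlated at -0.0439 to 0.0194.

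The comparison, the 57 gene lists (965 genes, 958 in the table, 871 tested) and the naming rule were chosen with earlier results of these data known. The rule named Etv5, Etv1, Etv4, Rela and Zfta; the 20 largest called rises and falls with at least 5 CPM in the higher group and no overlap; from each list up to 4 called genes each way, or the 2 with the highest levels where fewer than 2 were called; the 10 called genes with the widest range between ETV5 tumours at 50 CPM or more; the 10 most abundant genes of each group; and up to 2 called members with a motif per list of promoters. Cdkn1c, Col3a1, Emx2 and Six3 lie outside it and were chosen after their values were seen. Some genes that the rule names are not reported here. Gene positions are from GENCODE M21 and promoter sequences from RefSeq (GRCm38.p6), of which 250 bases before the start were searched.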

Additional observations from a re-analysis of the deposited data

How the results depend on the processing

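The count of genes called against cortex (9248) ranged from 9058 (limma-voom) to 10010 (no filter) over pseudocounts of 0.5 and 4, other filters, scalings, tools and a fit with all 9 libraries of the table, and from 7831 to 9682 when 1 library was left out; for genes called higher the latter range was 3934 to 4791, for genes called lower 3894 to 4891, and for genes with at least a 2-fold difference 6532 to 7254. With the replicate number as a block 8552 genes were called, 4258 higher and 4294 lower, and 6816 at least 2-fold; for ETV5 against control tumours the block gave 0. That comparison gave 0 genes without any 1 tumour and 75 in DESeq2. The cause was not tested. Of 226 genes named, 203 kept their direction and side of the threshold in each of 17 alternatives that gave an adjusted p (DESeq2 gave none for 2 of them, Gata4 and Emx2), 16 lost a call in at least 1 and 5 gained 1. Reversals occurred in 3 genes that were not called: Emx2 read 0.31 in edgeR, Six3 ran from -1.31 to 1.58 when 1 library was left out (-0.24 without cortex replicate 2, -1.31 without ETV5 replicate 2), and Rn45s from -0.27 (without ETV5 replicate 3) to 1.31. Limma-voom lost 11 calls, among them those of Amh, Tnni3 and Upk3b. Of 56 list medians, 2 changed sign, those of oligodendrocyte precursor genes (-0.22, and up to 0.08, in edgeR) and growth factor receptor genes (-0.04, and up to 0.31, with no filter). With 3 libraries per group, changes of 2-fold were mostly missed in a simulation with 200 changed genes. Its adjusted threshold was stricter than that of the data, where 9248 genes were called, so its recovery rate does not carry over. An uncalled gene is still not shown to be unchanged.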
